A study of Mus musculus with 16 samples.

Results

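The 40 genes described here encode the contractile apparatus, calcium handling and energy supply of skeletal muscle fibres. They were followed in dorsal skin biopsies as a measure of the muscle signal that each biopsy held. The members were found on the array by gene symbol, from a list of skeletal muscle products. All 40 had at least 1 probe set of their own on the array (69 probe sets), out of 18193 genes with a probe set of 1 symbol. A total of 38 genes passed the filter on low values, out of 12580 genes that passed it in all. Myh7 and Tnnc1, which encode the slow myosin heavy chain and the slow and cardiac troponin C, stayed under it on every array.

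The mice were double transgenic iK5-TERT animals (K5tTA-tetop-TERT), in which a tetracycline transactivator driven by the keratin 5 promoter switches on Tert in the basal epidermis and outer root sheath, and doxycycline switches it off. All received doxycycline in the drinking water during development and then carried the transgene switched on, and the labels place their hair follicles in anagen, the growth phase, at day 60. The TERT-off cohort was injected with doxycycline (8 µg/g) and the TERT-on cohort with vehicle, and biopsies of 3 cm2 were taken at 0, 6, 12 and 24 h. Each of the 8 groups held 2 arrays, numbered 1 and 2 in the labels, and the 4 arrays that share a cohort and a number were read as repeated biopsies of a single mouse, which gives 4 mice and 16 arrays. The labels call the TERT-off biopsies of 0 h injected, and the study's methods place them before the injection. The keratin 5 promoter is a keratinocyte promoter, and muscle fibres are not among the cells it is known to drive.

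Mouse skin rests on a thin sheet of skeletal muscle, the panniculus carnosus, which twitches the skin and lies below the fat layer of the dermis. The labels state that the subcutaneous fat layer was cut away before RNA extraction, and do not say how much of the muscle sheet went with it. Muscle fibres come in slow and fast types. Each type uses its own isoforms of myosin, troponin and calsequestrin, and the fast types are told apart by the myosin heavy chains 2A (Myh2), 2X (Myh1) and 2B (Myh4). In each fibre, myosin heads of the thick filament pull on actin of the thin filament once calcium from the sarcoplasmic reticulum binds troponin. In a biopsy of mixed tissue, fewer muscle fibres and less RNA per fibre cannot be told apart.

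The promoters of these genes were read from RefSeq (GRCm38.p6) for the 32 members that the table held, as the 250 bases before the transcription start and with the first start listed for each gene. Genes used by muscle are known targets of myogenic factors that bind E-boxes, of serum response factor at CArG boxes and of MEF2. The E-box CAGCTG was present on either strand in 15 of 32 members (46.9%), against 12.8% of 27018 promoters of the same length. The wider E-box form CANNTG, which includes CAGCTG, was found in 27 of the 32 (84.4%), against 66.1% of all. A CArG box was found in 4 (12.5% against 1.40%), a MEF2 site in 5 (15.6% against 3.01%) and TATAAA in 5 (15.6% against 13.0%). These are letter matches and not measured binding. The sequences of 3 members are shown: the skeletal actin Acta1, Mylpf with the smallest p between the cohorts, and Myh4, which held both a CArG box and a MEF2 site. They run from 5′ to 3′, and capitals mark CAGCTG matches, CArG boxes, MEF2 sites and matches to TATAAA. Of these last, 1 of the 3 matches in Myh4 lies, on the other strand, inside its MEF2 site. The regions are chr8:123894776-123895025 on the minus strand for Acta1, chr7:127211358-127211607 on the plus strand for Mylpf and chr11:67237562-67237811 on the plus strand for Myh4.
Acta1: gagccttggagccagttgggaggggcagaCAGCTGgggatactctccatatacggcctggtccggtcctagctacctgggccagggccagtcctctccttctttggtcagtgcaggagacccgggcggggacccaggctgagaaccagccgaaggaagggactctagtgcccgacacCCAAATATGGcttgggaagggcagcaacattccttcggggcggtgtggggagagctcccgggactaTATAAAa
Mylpf: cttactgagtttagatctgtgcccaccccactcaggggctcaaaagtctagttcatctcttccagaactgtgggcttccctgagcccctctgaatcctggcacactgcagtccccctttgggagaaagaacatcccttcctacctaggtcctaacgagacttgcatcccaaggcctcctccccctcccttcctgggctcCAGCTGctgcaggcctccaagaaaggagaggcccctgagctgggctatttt
Myh4: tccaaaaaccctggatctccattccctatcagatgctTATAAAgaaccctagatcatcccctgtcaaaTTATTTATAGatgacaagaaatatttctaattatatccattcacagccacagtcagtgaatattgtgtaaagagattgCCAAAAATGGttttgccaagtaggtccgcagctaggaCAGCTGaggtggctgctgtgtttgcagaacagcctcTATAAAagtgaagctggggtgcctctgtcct

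The names TERT-off and TERT-on are those of the labels, and the level of Tert itself bears out only part of them. Tert read 8.32 to 16.1 on the arrays labelled TERT-off of 6 to 24 h, against 22.6 to 64.6 on those labelled TERT-on, with no overlap. At 0 h it read 185 to 200 in TERT-off, against 216 to 357 in TERT-on. Tert was thus far under its own 0 h level after the injection in both cohorts, which goes against the label TERT-on at 6 to 24 h. All values are deposited intensities on a linear scale, with array medians of 32.9 to 36.3. TERT-on mouse 1 at 0 h stood apart in RNA quality, with a ratio of 5′ to 3′ Gapdh signal of 0.0599, against 0.977 to 1.12 on the 15 other arrays. Hair shaft genes were lowest in TERT-off mouse 1 at all 4 times, with a score (mean log2 deviation from each gene's mean) of -4.83 to -4.41, against -2.43 to 3.14 on the 12 other arrays. Their summed intensity at 0 h was 245 in TERT-off mouse 1 and 25510 in TERT-off mouse 2, against 6811 and 13390 in the TERT-on mice, so the label of anagen is not borne out in TERT-off mouse 1 even before the injection.

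Muscle transcripts were present in every biopsy, and their amount varied widely from biopsy to biopsy of the same mouse. Among the 38 members tested, the array with the highest value exceeded the lowest 1.79-fold for Myl3 and 24.8-fold for Myh4, with a median of 5.81-fold. A muscle score was taken for each array as the mean, over the 38 genes, of the log2 value minus that gene's mean on the 16 arrays. At 0, 6, 12 and 24 h it was 0.16, 0.53, 0.01 and 0.30 in TERT-off mouse 1 and -0.20, -0.41, 0.48 and 0.23 in TERT-off mouse 2. The TERT-on scores were 0.40, -0.93, -0.87 and 0.23 in mouse 1 and 0.98, 0.03, -0.52 and -0.36 in mouse 2. Both TERT-on mice were thus at their highest score at 0 h, while neither TERT-off mouse was. The pooled SD between the 2 arrays of a group was 0.43. The score gives the muscle signal of a biopsy relative to the others. It is no share in percent, since no array of pure muscle was at hand.

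**Figure D1:**
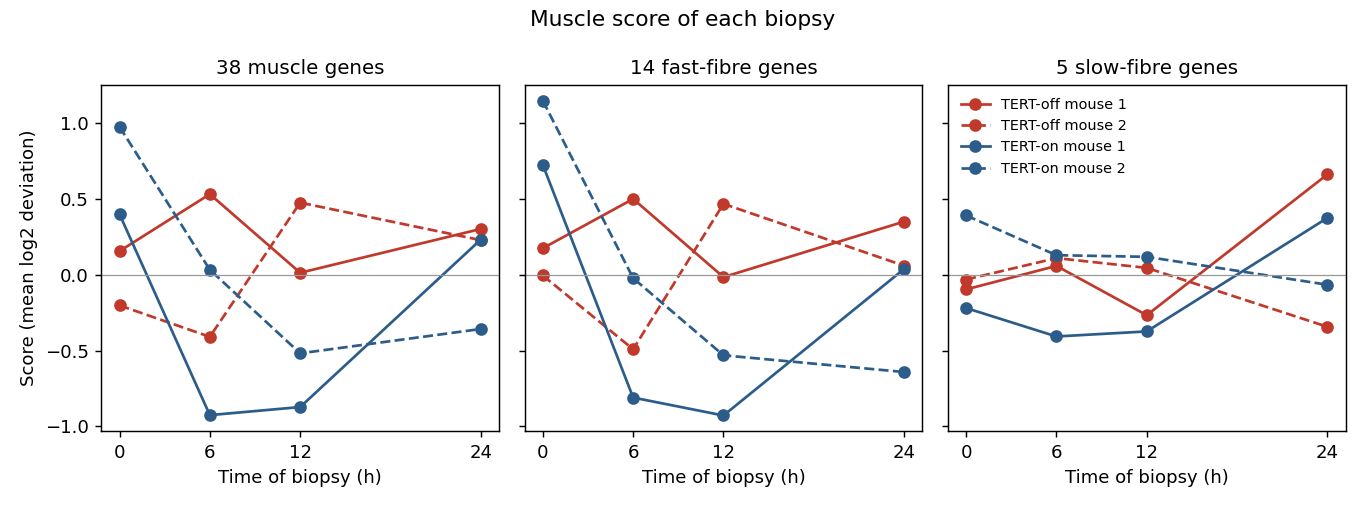
Muscle score of each of the 16 biopsies (vertical axis, mean log2 deviation from each gene's mean) against the time of biopsy in h, for 38 muscle genes, 14 fast-fibre genes and 5 slow-fibre genes; red lines are the TERT-off mice and blue lines the TERT-on mice. The TERT-on lines start at 0.40 and 0.98 for the 38 genes and drop by 6 or 12 h, and in the slow-fibre panel they start at -0.22 and 0.39.

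The members moved as a block across the arrays. For 23 of 38 the highest value lay on the 0 h array of TERT-on mouse 2. The lowest lay on the 6 h array of TERT-on mouse 1 for 17 and on its 12 h array for 11. No share over all genes was counted for these arrays. The correlation of a gene with the score of the other members over the 16 arrays, which share mice and are given here as a description, was 0.8 or more for 21 members. It was highest for Tnnt3 (0.97) and Tnni2 (0.97), the fast troponins T and I, and for Cacna1s (0.96), the voltage sensor of the transverse tubule. In 7 members it was under 0.5: Prkag3 (0.39), Myl2 (0.39), Myl3 (0.38), Casq2 (0.27), Myh4 (0.10), Tpm2 (-0.24) and Tnni1 (-0.52). Of these, 4 belong to the slow-fibre list.

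**Figure D2:**
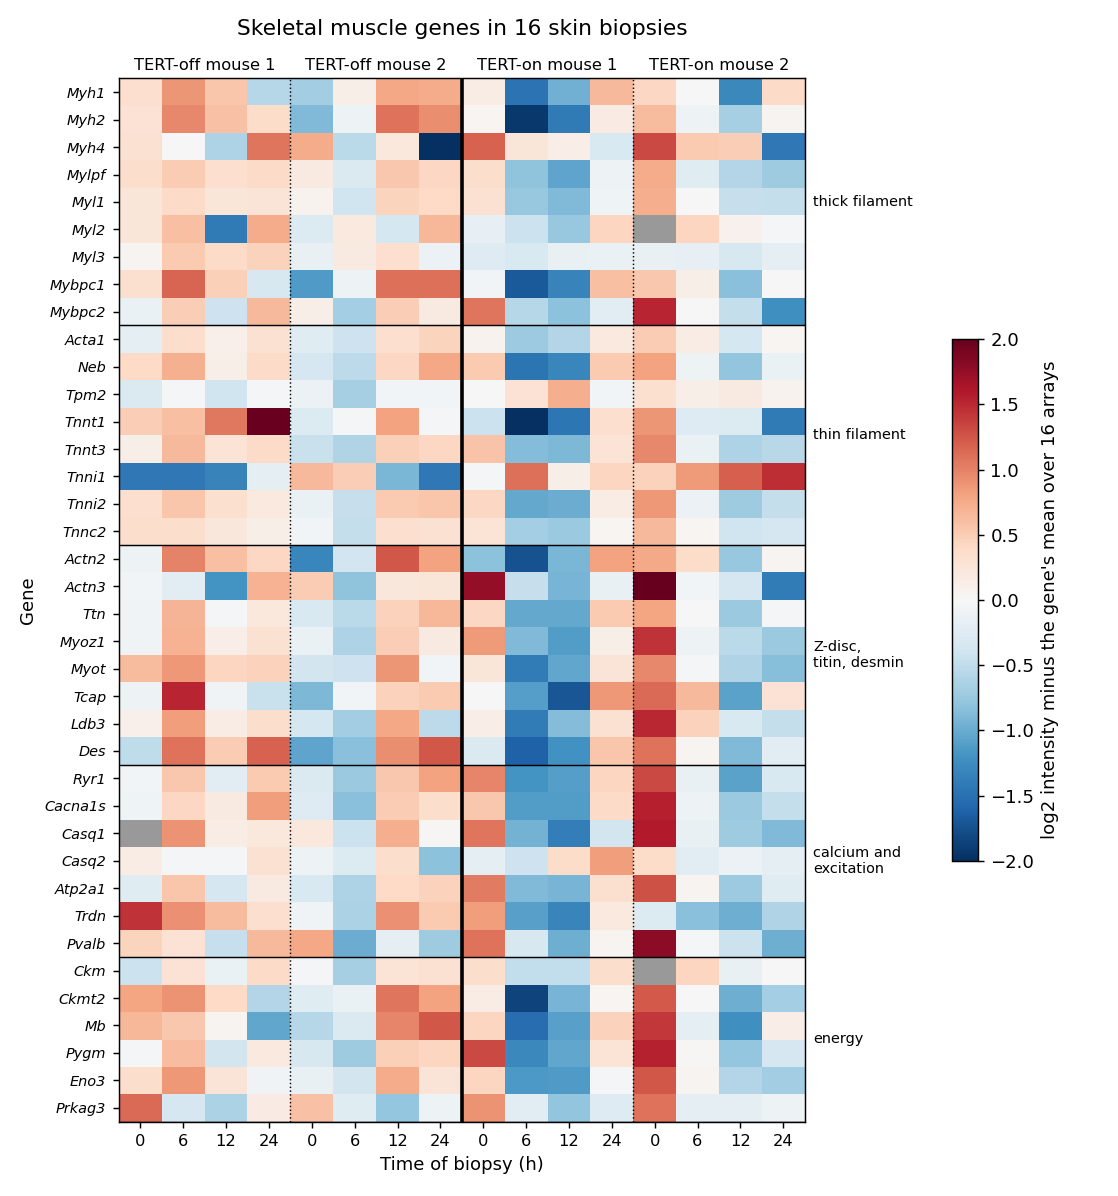
Log2 intensity of the 38 members minus each gene's mean over the 16 arrays (colour, red above and blue below the mean, grey for no value), by role (rows) and by mouse and time in h (columns), TERT-off mice on the left. Most rows share 1 pattern, with red at 0 h of TERT-on mouse 2 and blue at 6 and 12 h of TERT-on mouse 1; Myh4, Tpm2 and Tnni1 do not.

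After the injection, muscle genes were mostly higher in the cohort labelled TERT-off than in the cohort labelled TERT-on. Averaged over 6, 12 and 24 h, 33 of 38 members had a higher mean in TERT-off and 5 a lower one, with a median difference of 0.70 on the log2 scale, against 0.04 over all genes tested. A limma fit across all probe sets took the mouse as a random block, with Benjamini-Hochberg adjustment. In it 12 members were called higher in TERT-off than in TERT-on (31.6%, against a background of 16.9% of all genes called higher). Another 2, Tnni1 and Tpm2, were called lower in TERT-off (5.26%, against 12.6% called lower). Tnni1 passed the filter on low values only through TERT-on arrays after 0 h. All of these calls compare the cohorts and are not changes over time. The remaining 24 did not pass the test at adjusted p under 0.05. At an unadjusted p under 0.05 there were 26 of 38 members, against 5533 of 12580 genes. Those called higher were Mylpf, Myl1, Myl3 and Myh2 of the thick filament, Tnni2, Tnnt3 and Tnnt1 of the thin filament, Casq1, Trdn and Ryr1 of calcium handling, Des and Eno3. The arrays overlapped even so: all 6 TERT-off arrays lay above all 6 TERT-on arrays for Myl3 alone, against a background of 6.61% of genes. The count of 14 called members in either direction (background 29.5%) became 9 without TERT-off mouse 1 (21.8% of all genes called), 18 without TERT-off mouse 2 (35.4%), 1 without TERT-on mouse 1 (4.58%) and 0 without TERT-on mouse 2 (0.377%), so the calls of all genes moved alike. Of single arrays left out, the TERT-off ones gave 8 (mouse 1 at 6 h), 8 (mouse 1 at 12 h), 26 (mouse 2 at 6 h), 2 (mouse 2 at 12 h) and 4 (mouse 2 at 24 h). The TERT-on ones gave 4 (mouse 1 at 6 h), 6 (mouse 1 at 12 h), 25 (mouse 2 at 6 h), 9 (mouse 2 at 12 h) and 2 (mouse 2 at 24 h). In these 10 fits 16.8% to 39.2% of all genes were called, and with no filter on low values 2 members and 19.5% of all genes. Under 33 alternatives Mylpf kept its call in 32 (not without TERT-on mouse 2) and Myl3 in 30, while Ryr1 kept it in 13, Tnnt3 in 14 and Tpm2 in 16. The fit without the 0 h array of TERT-on mouse 1 is counted 2 times among the 33.

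**Figure D3:**
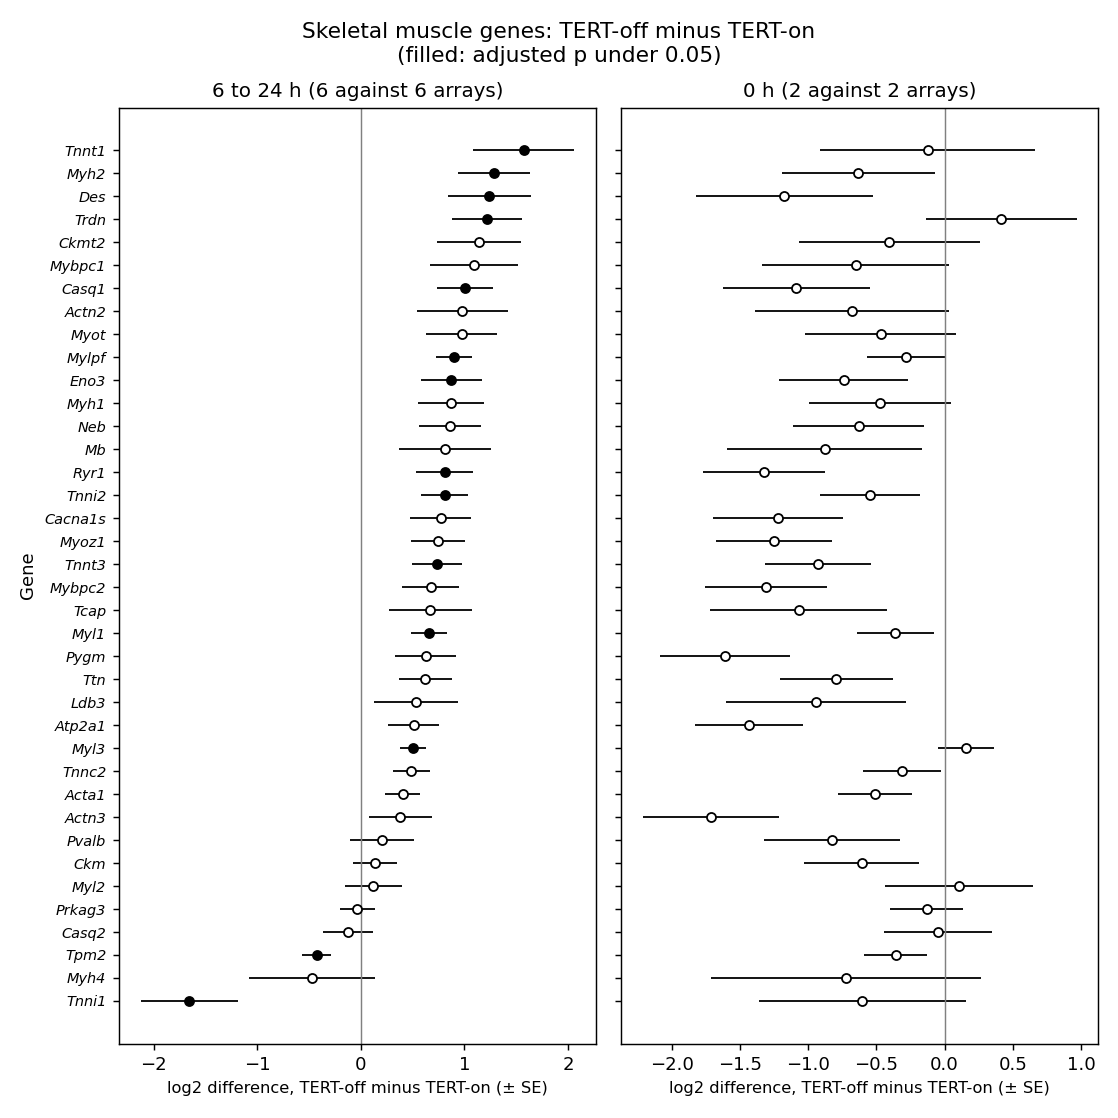
TERT-off minus TERT-on on the log2 scale (horizontal axis, with its standard error) for the 38 members tested, over 6 to 24 h on the left and at 0 h on the right; filled points passed adjusted p under 0.05. On the left 33 of 38 genes lie above 0 and 14 are filled, and on the right 35 of 38 lie below 0 and none is filled.

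At 0 h the order was the other way round. Of 38 members 35 had a lower mean in TERT-off, with a median difference of -0.64 against -0.02 over all genes. None passed the test (background 0.0397%), and 8 were at an unadjusted p under 0.05, against 999 of 12580 genes. The lowest differences were those of Actn3 (-1.71 ± 0.50), Pygm (-1.61 ± 0.48) and Atp2a1 (-1.44 ± 0.39, SE, 2 against 2 arrays). Both TERT-off arrays lay under both TERT-on arrays in 21 of the 35 members with 4 values, against 17.6% of all genes. Against TERT-on mouse 2 alone, whose Gapdh ratio was like that of the other arrays, both TERT-off arrays were lower in 31 of 35 (34.1% of all genes). TERT-on mouse 1, the array of low RNA quality, was itself under TERT-on mouse 2 in 34 of 35 (48.8% of all genes), and without it again no member passed.

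By time, the median difference was largest at 12 h. There it was 1.14, and 1 member, Mylpf, was called higher in TERT-off (1.26 ± 0.28, adjusted p = 0.0483, background 1.90% called higher). At an unadjusted p under 0.05 there were 28 of 38 members, against 3775 of 12580 genes. Both TERT-off arrays exceeded both TERT-on arrays in 30 of 38 members at 12 h, against 38.3% of all genes. At 6 h this held for 5 of 38 (29.1% of all genes), at 24 h for 16 of 38 (29.6%). The median difference was 0.58 at 6 h and 0.41 at 24 h. No member passed at 6 h (background 1.74%) or at 24 h (2.41%). At an unadjusted p under 0.05 there were 5 of 38 at 6 h (2962 of 12580 genes) and 4 of 38 at 24 h (2861 of 12580 genes). Both are smaller shares than those of all genes. Between 6 and 24 h a change of the gap was called in no member (background 0.207%). The estimates ran from -1.67 to 1.48, with a median change of -0.06. At an unadjusted p under 0.05 there were 2 members, against 1304 of 12580 genes. The call at 12 h was lost without any 1 of the 4 mice, without any 1 of 10 arrays (the 0, 6 and 12 h arrays of both TERT-on mice and the 12 and 24 h arrays of both TERT-off mice) and with no filter on low values, while 2 members passed without the 0 h array of TERT-off mouse 1 (7.80% of all genes) or mouse 2 (8.02%) and 9 without the 6 h array of either (11.7%). At 6 h, 2 passed without TERT-off mouse 2 (15.1% of all genes) or its 6 h array (13.4%), and at 24 h, 1 passed without either TERT-off mouse (3.57%), in each case a smaller share of the members than of all genes.

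Within the cohort labelled TERT-on, which received vehicle only and in which Tert read 216 to 357 at 0 h and 22.6 to 64.6 later, most muscle genes had lower means after 0 h. The mean change over 6 to 24 h was negative in 35 of 38 members, with a median of -1.15 against -0.05 over all genes. Actn3, the fast Z-disc actinin (-2.49 ± 0.39, adjusted p = 0.0363), and Prkag3, a regulatory subunit of the AMP-activated kinase of fast muscle (-1.28 ± 0.21, adjusted p = 0.0421), fell (5.26%, against a background of 0.143%). Prkag3 passed the filter on low values only through its 0 h arrays, where it was high, so its fall cannot serve as support. In TERT-on mouse 2, 35 of 36 members with all values were lower at 6, 12 and 24 h than at 0 h (42.3% of all genes). In TERT-on mouse 1 this held for 19 of 38 (36.4% of all genes), and 17 were highest at 24 h (share of all genes not counted). The score change from 0 h was -0.92 in TERT-on mouse 1 and -1.26 in TERT-on mouse 2. No member passed without any 1 of the 4 mice, or without the 0 h array of TERT-on mouse 1 (the one of low RNA quality), its 6 or 12 h array, the 24 h array of TERT-on mouse 2 or that of either TERT-off mouse, with 0.393% of all genes or fewer called in each of these fits. A single member passed without the 12 h array of TERT-on mouse 2 or of either TERT-off mouse (0.103% of all genes or fewer), and 9 passed without the 6 h array of either TERT-off mouse (0.358%).

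In the TERT-off cohort the same span showed little shift. The mean change over 6 to 24 h was positive in 29 of 38 members, with a median of 0.25 against 0.01 over all genes. Prkag3, which passed the filter only through its 0 h arrays, fell there too (-1.18 ± 0.21, adjusted p = 0.0414, background 0.135% called lower). The call was lost without any 1 of the 4 mice or of 11 arrays. These were the 0, 6 and 24 h arrays of both TERT-on mice and the TERT-off arrays of mouse 1 at 0, 6 and 12 h and of mouse 2 at 12 and 24 h, while 2 members passed without TERT-off mouse 2 at 6 h (7.12% of all genes). The score change was 0.13 in TERT-off mouse 1 and 0.30 in TERT-off mouse 2. In TERT-off mouse 1, 21 of 37 members were highest at 6 h. In TERT-off mouse 2, 23 of 38 were lowest at 6 h and 21 highest at 12 h. No share over all genes was counted for these times. The muscle score at 6 h was 0.53 in mouse 1 and -0.41 in mouse 2, so the 2 mice of the cohort did not follow the same course. The change in TERT-off minus the change in TERT-on, which takes the unequal start into account, was positive in 35 of 38 members with a median of 1.48. It passed in none (background 0.00795%), with 23 at an unadjusted p under 0.05, against 1806 of 12580 genes.

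The intensities of single genes follow, always at 0, 6, 12 and 24 h in that order, and each difference is TERT-off minus TERT-on over 6 to 24 h on the log2 scale with its standard error, from 6 against 6 arrays of 2 mice each. Counts of genes called in a group are to be read against the 16.9% of all genes called higher and the 12.6% called lower. Myh2, the myosin heavy chain of fast 2A fibres, read 2147, 3400, 2618 and 2267 in TERT-off mouse 1 and 947, 1630, 3725 and 3333 in TERT-off mouse 2, against 1792, 460.0, 655 and 1953 in TERT-on mouse 1 and 2729, 1629, 1108 and 1826 in TERT-on mouse 2. The TERT-off arrays after 0 h lay at 1630 or more and the TERT-on arrays at 1953 or less, with a difference of 1.29 ± 0.35 (adjusted p = 0.02). Myh1, the 2X chain, read 2580, 3771, 3001 and 1382 in TERT-off mouse 1 and 1262, 2237, 3523 and 3446 in TERT-off mouse 2, against 2286, 737, 1056 and 3222 in TERT-on mouse 1 and 2738, 2031, 836 and 2672 in TERT-on mouse 2. Both TERT-off arrays were higher at 6 and 12 h and not at 24 h, and the difference of 0.87 ± 0.32 did not pass (adjusted p = 0.0646). The 3 fast chains are alike in sequence and lie side by side on chromosome 11, and the probe set of Myh1 carries the x suffix that marks probes shared with other transcripts, so which chain its signal comes from is uncertain.

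Myh4, the 2B chain of the fastest fibres, did not follow the other chains. It read 1985, 1607, 1049 and 3373 in TERT-off mouse 1 and 2670, 1101, 1848 and 161 in TERT-off mouse 2, against 3625, 1893, 1750 and 1305 in TERT-on mouse 1 and 3989, 2307, 2257 and 598 in TERT-on mouse 2. It was highest at 0 h in 3 mice, and the 24 h values of the TERT-off cohort were 161 in mouse 2 and 3373 in mouse 1. After 0 h the TERT-on range lay within the TERT-off range, with a difference of -0.48 ± 0.61 (adjusted p = 0.593). The sign and the call turned on single arrays: without TERT-off mouse 2 the difference was 0.21 and without its 24 h array alone 0.26, while without TERT-off mouse 1 it was -1.16 (adjusted p = 0.0142) and without that mouse's 24 h array -1.22 (adjusted p = 0.0122), both called lower. Set against Myh2 on the same array, as the deviation of Myh4 minus that of Myh2, the score was -4.24 on the 24 h array of TERT-off mouse 2 and between -1.48 and 2.17 on the 15 others. The slow chain Myh7 read 23.0, 25.7, 25.7 and 21.5 in TERT-off mouse 1 and 25.6, 23.8, 13.6 and 19.5 in TERT-off mouse 2, against 19.1, 22.0, 21.6 and 16.3 in TERT-on mouse 1 and 21.1, 20.7, 15.1 and 17.7 in TERT-on mouse 2. All of these lie under the table median of 34.4, and 2 probe sets shared by Myh7 and Myh6 read at most 6.59.

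**Figure D4:**
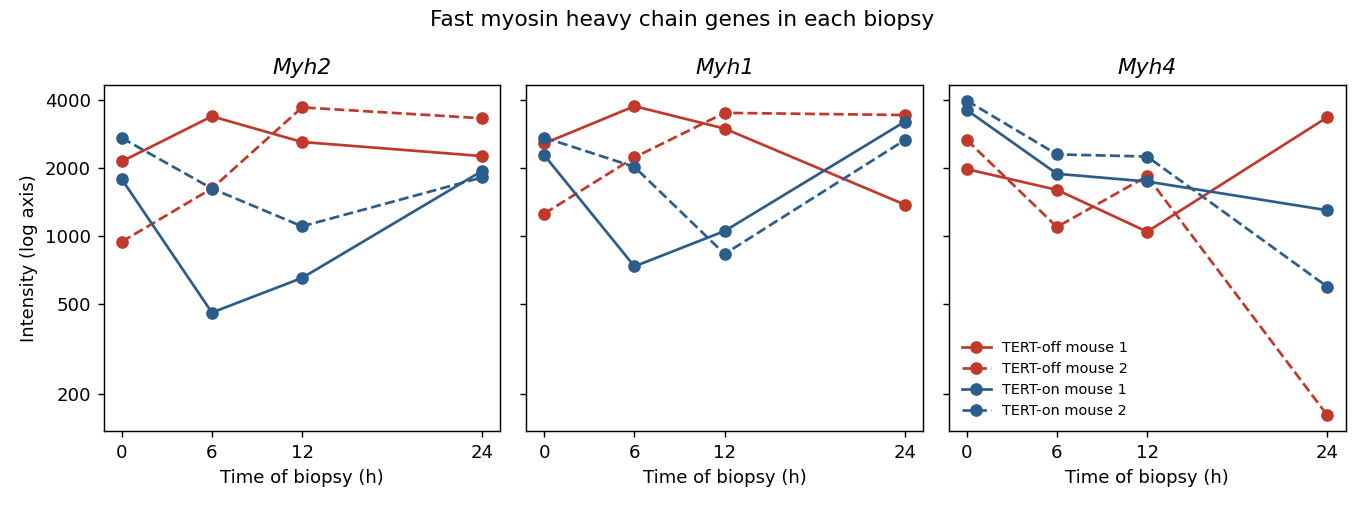
Intensity (vertical log axis) of the 3 fast myosin heavy chain genes Myh2, Myh1 and Myh4 against the time of biopsy in h; red lines are the TERT-off mice and blue lines the TERT-on mice. Myh2 and Myh1 have their lowest values on TERT-on arrays of 6 and 12 h, while Myh4 is highest at 0 h in 3 mice and at 24 h spans 161 to 3373 within the TERT-off cohort.

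Among the myosin light chains, the fast regulatory chain Mylpf gave the smallest p of all members. It read 4183, 4673, 4170 and 4273 in TERT-off mouse 1 and 3721, 2697, 4775 and 4360 in TERT-off mouse 2, against 4205, 1879, 1579 and 3051 in TERT-on mouse 1 and 5468, 2790, 2189 and 2002 in TERT-on mouse 2. Only the 6 h array of TERT-off mouse 2 lay within the TERT-on range after 0 h, and the difference was 0.90 ± 0.18 (adjusted p = 0.00631). Its slow counterpart Myl2, which is also the ventricular chain of the heart, read 33.6, 43.5, 10.8 and 48.0 in TERT-off mouse 1 and 23.6, 32.8, 22.5 and 45.1 in TERT-off mouse 2, against 25.4, 21.2, 17.0 and 38.4 in TERT-on mouse 1 and no value, 38.5, 30.5 and 28.2 in TERT-on mouse 2. These values straddled the table median of 34.4, and the difference was 0.12 ± 0.27 (adjusted p = 0.78). Myl1, the fast essential chain, read 3699, 4077, 3710 and 3764 in TERT-off mouse 1 and 3297, 2381, 4264 and 4156 in TERT-off mouse 2, against 3870, 1863, 1704 and 2964 in TERT-on mouse 1 and 5192, 3170, 2290 and 2261 in TERT-on mouse 2, with a difference of 0.66 ± 0.18 (adjusted p = 0.0193). Myl3, the slow and ventricular essential chain, read 52.6, 73.1, 66.0 and 69.8 in TERT-off mouse 1 and 45.5, 57.1, 63.9 and 46.6 in TERT-off mouse 2, against 42.3, 41.1, 45.6 and 46.0 in TERT-on mouse 1 and 45.5, 45.2, 40.8 and 44.6 in TERT-on mouse 2. It was higher in TERT-off by 0.50 ± 0.13 (adjusted p = 0.0165). Every TERT-off array after 0 h lay at 46.6 or more and every TERT-on array at 46.0 or less, in a narrow range of low intensities.

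Myosin binding protein C stiffens the thick filament and exists in a fast form (Mybpc2) and a slow form (Mybpc1). Mybpc2 read 686.5, 1063, 563 and 1175 in TERT-off mouse 1 and 814, 471, 1059 and 854 in TERT-off mouse 2, against 1583, 508, 427 and 648 in TERT-on mouse 1 and 2165, 745, 541 and 322 in TERT-on mouse 2. The 2 TERT-on mice were highest at 0 h, and the difference over 6 to 24 h was 0.67 ± 0.27 (adjusted p = 0.0907). Mybpc1 read 724.5, 1299, 804 and 464 in TERT-off mouse 1 and 264, 543, 1246 and 1249 in TERT-off mouse 2, against 559.5, 181, 231 and 881 in TERT-on mouse 1 and 844, 630.2, 325 and 586 in TERT-on mouse 2. Its difference was 1.09 ± 0.42 (adjusted p = 0.0777) on this probe set, while 2 other probe sets of the gene passed with 0.92 ± 0.23 and 1.35 ± 0.38. Of the 9 thick-filament genes tested, 4 were called higher in TERT-off (background 16.9%), none lower and 5 did not pass, with a median of 0.67.

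On the thin filament, skeletal actin had the narrowest range, 2.34-fold over the 16 arrays. Acta1 read 4979, 7243, 6096 and 7059 in TERT-off mouse 1 and 4807, 4280, 7192 and 7756 in TERT-off mouse 2, against 5993, 3456, 3785 and 6498 in TERT-on mouse 1 and 8096, 6334, 4437 and 5864 in TERT-on mouse 2, with a difference of 0.40 ± 0.17 (adjusted p = 0.0975). Neb, the giant ruler of the thin filament, read 474, 587, 388 and 467 in TERT-off mouse 1 and 283, 249, 479 and 612 in TERT-off mouse 2, against 513, 129, 145 and 513 in TERT-on mouse 1 and 625.5, 334, 207 and 325 in TERT-on mouse 2. The low values were again those of TERT-on mouse 1 at 6 and 12 h, and the difference was 0.86 ± 0.30 (adjusted p = 0.0519). Of the 8 thin-filament genes tested, 3 were called higher in TERT-off (background 16.9%), 2 lower (12.6%) and 3 did not pass, with a median of 0.61.

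Troponin switches the thin filament on, and in 1 of its fast and slow pairs the differences had opposite signs. The fast inhibitory troponin Tnni2 read 3855, 4521, 3805 and 3503 in TERT-off mouse 1 and 2780, 2227, 4390 and 4503 in TERT-off mouse 2, against 4071, 1511, 1538 and 3399 in TERT-on mouse 1 and 5618, 2829, 1871 and 2212 in TERT-on mouse 2. It was higher in TERT-off by 0.81 ± 0.23 (adjusted p = 0.0233), as was a second probe set of the gene (0.80 ± 0.23). The slow inhibitory troponin Tnni1 read 6.12, 6.06, 8.25 and 18.2 in TERT-off mouse 1 and 32.4, 29.1, 10.9 and 6.02 in TERT-off mouse 2, against 20.1, 44.6, 22.4 and 27.9 in TERT-on mouse 1 and 28.7, 37.2, 47.5 and 57.5 in TERT-on mouse 2. It was called lower in TERT-off (-1.66 ± 0.47, adjusted p = 0.0241), with 3 arrays under the floor of 7.71 and 4 of 16 above the table median. The difference is thus one near background. All 4 arrays above the median were TERT-on arrays after 0 h. The gene passed the filter only through the group where it was high, so its call cannot serve as support. The correlation of Tnni1 with the other members, -0.52, was the lowest of all.

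The fast tropomyosin-binding troponin Tnnt3 read 2342, 3354, 2585 and 2817 in TERT-off mouse 1 and 1574, 1414, 2997 and 2873 in TERT-off mouse 2, against 3176, 1178, 1150 and 2598 in TERT-on mouse 1 and 4201, 1953, 1406 and 1471 in TERT-on mouse 2, with a difference of 0.73 ± 0.24 (adjusted p = 0.0439). Its slow counterpart Tnnt1 read 73.8, 79.5, 108.5 and 205 in TERT-off mouse 1 and 43.2, 50.8, 91.9 and 51.7 in TERT-off mouse 2, against 39.0, 13.1, 19.3 and 65.8 in TERT-on mouse 1 and 96.9, 43.5, 43.4 and 19.6 in TERT-on mouse 2. Here fast and slow forms differed the same way: Tnnt1 was higher in TERT-off by 1.57 ± 0.49 (adjusted p = 0.0343), at values of 13.1 to 205. The fast calcium sensor Tnnc2 read 5104, 5068, 4648 and 4317 in TERT-off mouse 1 and 3834, 2855, 5039 and 4924 in TERT-off mouse 2, against 4822, 2478, 2377 and 4082 in TERT-on mouse 1 and 6261, 4112, 3026 and 3164 in TERT-on mouse 2, with a difference of 0.49 ± 0.18 (adjusted p = 0.0615). Tnnc1, the slow and cardiac form, read 16.9, 18.4, 16.4 and 25.4 in TERT-off mouse 1 and 17.2, 15.9, 17.9 and 16.1 in TERT-off mouse 2, against 17.1, 12.1, 8.11 and 9.13 in TERT-on mouse 1 and 24.8, 12.8, 12.3 and 15.5 in TERT-on mouse 2. These last values were too low to be tested.

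Tpm2, which encodes beta-tropomyosin and is also used by smooth muscle, was the other gene called lower in TERT-off. It read 958, 1139, 889 and 1157 in TERT-off mouse 1 and 1087, 746, 1137 and 1133 in TERT-off mouse 2, against 1164, 1433, 1953 and 1134 in TERT-on mouse 1 and 1469, 1274, 1334 and 1237 in TERT-on mouse 2. The highest value was that of TERT-on mouse 1 at 12 h, an array on which most members were low, and the difference was -0.43 ± 0.14 (adjusted p = 0.0445). The probe sets of Tpm2 disagreed, with a second one at 0.78 ± 0.29 (adjusted p = 0.0659) and the mean of all of them at 0.04. That second probe set read 381, 636, 343 and 348.5 in TERT-off mouse 1 and 256, 255, 656 and 539 in TERT-off mouse 2, against 696, 194, 178 and 387.5 in TERT-on mouse 1 and 872, 344, 221 and 260.4 in TERT-on mouse 2. It thus followed the other muscle genes, and the probe set that stands for the gene did not.

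At the Z-disc, where thin filaments of neighbouring sarcomeres are anchored, Actn3 is the actinin of fast fibres and Actn2 that of all fibres. Actn3 read 380.1, 341, 172 and 636 in TERT-off mouse 1 and 562.5, 227, 462.5 and 467 in TERT-off mouse 2, against 1326, 287, 208 and 357 in TERT-on mouse 1 and 1730, 379, 314 and 149 in TERT-on mouse 2. Both TERT-on mice stood at 1326 or more at 0 h and no other array exceeded 636, while the TERT-off values of 0 h lay within the later TERT-off range. Over 6 to 24 h the cohorts differed by 0.38 ± 0.31 (adjusted p = 0.381). Actn2 read 519, 1112, 844 and 742 in TERT-off mouse 1 and 225, 429, 1317 and 977.5 in TERT-off mouse 2, against 316.5, 166, 295 and 977 in TERT-on mouse 1 and 943, 721, 328 and 579.7 in TERT-on mouse 2. Its highest value was that of TERT-off mouse 2 at 12 h, and its difference was 0.98 ± 0.44 (adjusted p = 0.119). Des, the muscle intermediate filament desmin, read 312, 932, 625 and 996 in TERT-off mouse 1 and 213, 247, 842 and 1041 in TERT-off mouse 2, against 362, 144, 191 and 648 in TERT-on mouse 1 and 933, 457, 238 and 375.5 in TERT-on mouse 2. It was the only one of the 8 genes of this group called higher in TERT-off (1.24 ± 0.40, adjusted p = 0.0408), with none lower and a group median of 0.71. This share of 1 in 8 is under the background of 16.9%.

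Of the Z-disc proteins that bind actinin, myozenin (Myoz1) is a marker of fast fibres and myotilin is encoded by Myot. Myoz1 read 566, 966, 654 and 739 in TERT-off mouse 1 and 543, 390.5, 837 and 678 in TERT-off mouse 2, against 1073, 325, 274 and 644 in TERT-on mouse 1 and 1618, 555, 409 and 357 in TERT-on mouse 2, with a difference of 0.75 ± 0.26 (adjusted p = 0.0559). Myot read 774, 916, 675 and 685 in TERT-off mouse 1 and 388, 376, 927 and 483 in TERT-off mouse 2, against 592, 189.9, 244 and 595 in TERT-on mouse 1 and 971, 492, 329.6 and 276.5 in TERT-on mouse 2, with a difference of 0.98 ± 0.34 (adjusted p = 0.0555). In both genes TERT-on mouse 1 was lowest at 6 and 12 h. The differences of the 3 others were 0.62 ± 0.25 for Ttn, the molecular spring titin, 0.67 ± 0.40 for its cap Tcap and 0.53 ± 0.41 for Ldb3. None of these passed, although 2 of the other probe sets of Ttn did, with 0.82 ± 0.28 and 0.90 ± 0.28.

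Calcium handling held 3 genes called higher in TERT-off (background 16.9%), none called lower and 4 that did not pass, out of 7 tested with a median of 0.77. Casq1, the fast calsequestrin that stores calcium in the sarcoplasmic reticulum, read no value, 767, 455 and 478 in TERT-off mouse 1 and 475.5, 305, 681 and 416 in TERT-off mouse 2, against 863, 214, 157 and 318 in TERT-on mouse 1 and 1230, 369.9, 252 and 223 in TERT-on mouse 2. The difference was 1.00 ± 0.27 (adjusted p = 0.0221). The cardiac and slow calsequestrin Casq2 read 88.7, 78.4, 77.8 and 98.7 in TERT-off mouse 1 and 74.6, 66.0, 101 and 45.3 in TERT-off mouse 2, against 69.2, 59.7, 102 and 141 in TERT-on mouse 1 and 102, 69.2, 73.3 and 70.1 in TERT-on mouse 2, with overlapping cohorts and a difference of -0.13 ± 0.24 (adjusted p = 0.734). Ryr1, the calcium release channel, read 369, 559, 333 and 556 in TERT-off mouse 1 and 314, 231, 562 and 671 in TERT-off mouse 2, against 754.5, 167, 179 and 519 in TERT-on mouse 1 and 959, 347, 184 and 312.5 in TERT-on mouse 2. It was higher in TERT-off by 0.81 ± 0.28 (adjusted p = 0.0488), while its other probe set gave 0.26 ± 0.44.

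Trdn encodes triadin, which ties calsequestrin to the release channel. It read 1554, 1071, 880.1 and 714 in TERT-off mouse 1 and 542, 365, 1074 and 821 in TERT-off mouse 2, against 1012, 266.5, 228 and 649 in TERT-on mouse 1 and 468, 319.8, 289 and 376 in TERT-on mouse 2. After 0 h, 5 of the 6 TERT-off arrays lay above every TERT-on array. The difference was 1.22 ± 0.34 (adjusted p = 0.0232), and 2 other probe sets passed with 1.00 ± 0.29 and 1.21 ± 0.33. The calcium pump Atp2a1 (0.51 ± 0.24), the channel Cacna1s (0.77 ± 0.29) and the cytosolic calcium buffer Pvalb (0.21 ± 0.31) did not pass. Pvalb was at 2107 or more at 0 h in all 4 mice and above that on 1 later array only, TERT-off mouse 1 at 24 h (2420).

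Of the 6 energy genes, 1 was called higher in TERT-off and none lower, which is no more than the background of 16.9% called higher, with a median of 0.72. Ckm, the cytosolic creatine kinase of muscle, read 2328, 3821, 2853 and 4100 in TERT-off mouse 1 and 3072, 1980, 3787 and 3893 in TERT-off mouse 2, against 3988, 2234, 2220 and 4020 in TERT-on mouse 1 and no value, 4243, 2832 and 3149 in TERT-on mouse 2. The ranges of the cohorts overlapped, and the difference was 0.13 ± 0.21 (adjusted p = 0.678). Eno3, the muscle enolase, read 1626, 2339, 1535 and 1220 in TERT-off mouse 1 and 1150, 995, 2136 and 1524 in TERT-off mouse 2, against 1721, 574, 583.5 and 1240 in TERT-on mouse 1 and 3027, 1326, 854.5 and 793.5 in TERT-on mouse 2. It was higher in TERT-off by 0.87 ± 0.29 (adjusted p = 0.0451). The mitochondrial creatine kinase Ckmt2 (1.14 ± 0.41), myoglobin Mb (0.81 ± 0.44), the glycogen phosphorylase Pygm (0.63 ± 0.30) and Prkag3 (-0.03 ± 0.17) did not pass. Prkag3 read 39.4 to 57.3 at 0 h in the 4 mice and 15.1 to 29.4 on the 12 later arrays, which do not overlap.

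After the injection 13 of 14 fast-fibre genes had a higher mean in TERT-off skin, and 3 of 5 slow-fibre genes. Of the 14 fast genes, 6 were called higher in TERT-off (Myh2, Mylpf, Myl1, Tnni2, Tnnt3 and Casq1, background 16.9%), none lower and 8 did not pass, with a median of 0.70. Of the 5 slow genes, 2 were called higher in TERT-off (Myl3 and Tnnt1, background 16.9%) and 1 lower (Tnni1, 12.6%), with a median of 0.12. That median is the value of Myl2, a gene near background, and Tnni1 passed the filter only through TERT-on arrays after 0 h. Mybpc1, the slow form of myosin binding protein C, was on neither list, although its fast form Mybpc2 was on the fast list. Its difference, given above, was larger than that of Mybpc2, so the slow median depends on which genes were listed. The difference between these medians was 0.58, and 0.35 to 0.72 under all alternatives tried. No test of it was run, since members are not replicates. From 0 h, the median change of the 14 fast genes was 0.10 in TERT-off and -1.27 in TERT-on. That of the 5 slow genes was 0.10 in TERT-off and -0.001 in TERT-on. At 0 h the fast score was 0.17 and -0.01 in the TERT-off mice, against 0.72 and 1.15 in the TERT-on mice. The slow score at 0 h was -0.10 and -0.03 in TERT-off, against -0.22 and 0.39 in TERT-on. Over 6 to 24 h the fast score ran between -0.49 and 0.50 in TERT-off, against -0.93 and 0.04 in TERT-on. The slow score ran between -0.34 and 0.66 in TERT-off, against -0.41 and 0.37 in TERT-on. The summed intensity of the 7 slow genes was 214 to 487 over all arrays. Casq2 and Myl3 lay above the table median of 34.4 on all 16 arrays, Tnnt1 on 13, and Myh7 and Tnnc1 on none.

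Skeletal muscle genes outside the 40 ran the same way in sign. Of 50 listed, 45 were tested, with 41 of 45 higher in TERT-off over 6 to 24 h (median 0.66) and 42 of 45 lower at 0 h (median -0.79). After the injection 4 of the 45 passed as higher, a share below the background of 16.9%, and none as lower: Sln, a small inhibitor of the calcium pump (1.81 ± 0.50), Tmod4, a tropomodulin of skeletal muscle (1.17 ± 0.34), Cav3, the muscle caveolin (1.15 ± 0.37), and Fhl1. Among all 12542 genes outside the members, 40 had a correlation of 0.9 or more with the muscle score over the 16 arrays, and the median was 0.09. The 15 highest were Srl (0.98), Cox6a2 (0.97), Tmod1, Myom2, Gyg, Pde4dip, Svip, Tmem182, Smyd1, Myom1, Adssl1, Rpl3l, Smpx, Cox8b and Cap2 (0.94). Of these, Srl, Cox6a2, Myom2, Myom1, Smpx and Cox8b were on the list of other muscle genes.

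Markers of other cell types differed too, and their part in the result was not tested. The shares of all genes called, 16.9% higher and 12.6% lower, are the background for each list. Over 6 to 24 h, 5 of 6 fibroblast genes were called higher in TERT-off (Pdgfra 1.44 ± 0.21, Lum 1.09 ± 0.19, Col1a2 0.58 ± 0.16). The summed intensity of the list was 19900 to 30390 in TERT-off, against 12850 to 20950 in TERT-on. Of 5 endothelial genes 4 were called higher (Tek 0.82 ± 0.16, Emcn 0.80 ± 0.17, Pecam1 0.65 ± 0.17), with sums of 558 to 943 in TERT-off and 458.5 to 658 in TERT-on. Of 10 adipocyte genes tested 5 were called higher (Adig 1.24 ± 0.30, Retn 1.20 ± 0.20, Cidec 0.98 ± 0.33), with sums of 15710 to 20590 in TERT-off and 12560 to 15730 in TERT-on. Hair shaft genes were called lower in TERT-off in 8 of 8 (Krt33a -5.94 ± 1.69, Krt31 -5.62 ± 1.55, Krt34 -5.35 ± 1.61), with sums of 156 to 20950 in TERT-off and 5465 to 27900 in TERT-on. From 0 h their score changed by -0.33 in TERT-off mouse 1 and -3.45 in TERT-off mouse 2. In TERT-on mice 1 and 2 it changed by -0.89 and 2.02. Basal keratinocyte genes were called higher in 1 of 6 (Col17a1 0.56 ± 0.17), no more than the background, with sums of 10280 to 15880 in TERT-off and 12170 to 15430 in TERT-on. At 0 h no gene of these 5 lists passed in limma, with 4 basal keratinocyte genes and none of the others at an unadjusted p under 0.05 (999 of 12580 genes). For hair shaft genes this does not show an equal start, since their 0 h score was -4.41 in TERT-off mouse 1 and 3.015 in TERT-off mouse 2.

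**Figure D5:**
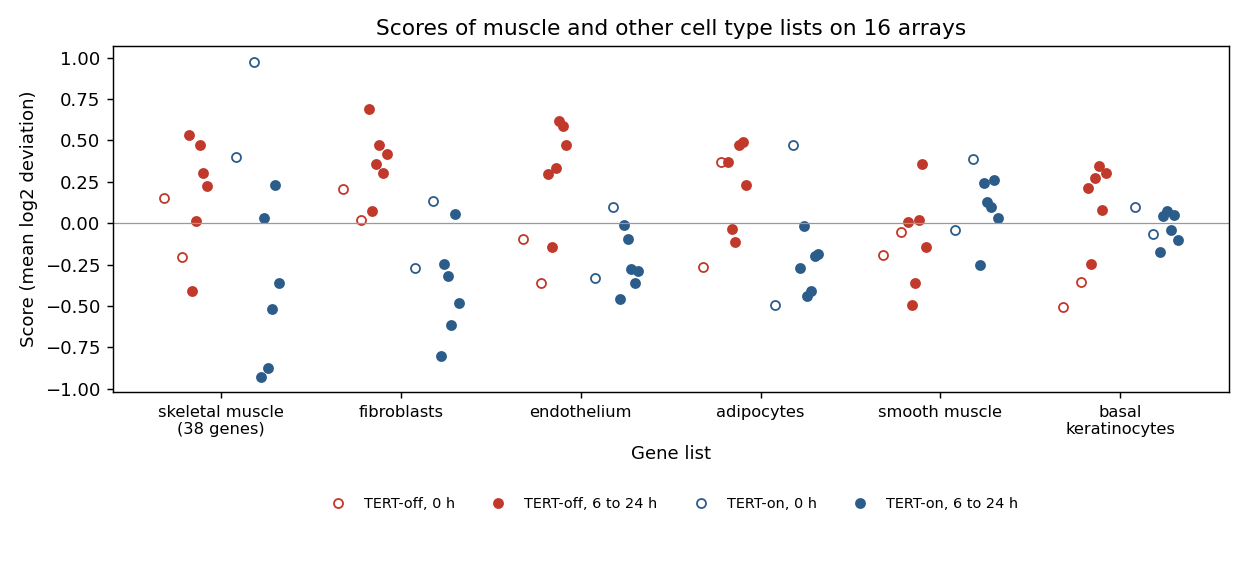
Scores (vertical axis, mean log2 deviation from each gene's mean over 16 arrays) of the muscle genes and of 5 cell type lists, 1 point per array; red is TERT-off and blue TERT-on, open points are 0 h and filled points 6 to 24 h. After 0 h the fibroblast, endothelial and adipocyte points of TERT-off lie mostly above those of TERT-on, as the muscle points do, and the smooth muscle points do not.

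Smooth muscle, found in the skin in hair erector muscles and vessel walls, did not follow skeletal muscle. Of its 10 genes 5 were called lower in TERT-off (background 12.6%), led by Smtn (-1.17 ± 0.23), Tagln (-0.81 ± 0.23) and Cnn1 (-0.78 ± 0.24). Only 1, Myh11, was called higher (0.74 ± 0.24, background 16.9%). The summed intensity of the 10 genes after 0 h was 3203 to 4950 in TERT-off and 4288 to 5508 in TERT-on. Cardiac markers were near background: of 8 genes 6, among them Myh6, Nppa and Tnni3, did not pass the filter. Over 6 to 24 h neither of the others was called or had an unadjusted p under 0.05 (5533 of 12580 genes). Such a p was seen for 1 at 6 h (2962 of 12580 genes) and 1 at 24 h (2861 of 12580 genes). Of 7 myogenic and satellite cell genes on the array, Pax7 and Myf5 did not pass the filter. Over 6 to 24 h none of the 5 others was called in limma, with 2 at an unadjusted p under 0.05 (5533 of 12580 genes). Their score was highest at 24 h in both cohorts, at 0.67 and 1.69 in TERT-off mice 1 and 2 and 1.23 and 0.68 in TERT-on mice 1 and 2. On the earlier arrays it ran from -1.25 to 0.40. This course over time was not tested. Of 10 genes of embryonic or denervated muscle and the end plate, 6 did not pass the filter, Myh3 and Myh8 of developing fibres among them. Over 6 to 24 h 1 of the 4 tested was called higher in TERT-off (Chrnb1, the beta subunit of the acetylcholine receptor, 0.57 ± 0.15).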

How the data were processed

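RNA of 16 dorsal skin biopsies was hybridised to Affymetrix whole-genome mouse arrays (1 colour). The authors normalised the arrays to an invariant set in dChip, modelled perfect-match minus mismatch signals and deposited linear intensities per probe set, with no record of depth. Settings of that step beyond this are not given in the sources used here.

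Values were floored at 7.71, the 20th percentile of the table, and log2 transformed. Probe sets above 34.4, the table median, on 2 or more arrays and with a value in every group were kept (25563). Group means were fitted in limma 3.58.1 (R 4.3.3, statmod 1.5.0) with the mouse as a random block (duplicateCorrelation, consensus correlation 0.0728) and an intensity trend in eBayes. P-values were two-sided, adjusted by Benjamini-Hochberg over all probe sets kept, and called at an adjusted p under 0.05. A gene with several probe sets was stood for by the one of highest mean intensity. Empty cells, 1 each in Casq1, Ckm and Myl2, were left missing. The p-values measure the spread between the 2 arrays of a group, in which differences between mice and between biopsies are mixed. The correlation was near 0 (-0.0791 over the members alone), so repeated biopsies of 1 mouse counted almost as independent arrays. With 2 mice per cohort, the p-values do not measure the spread between animals, and no exact permutation test over 2 against 2 mice can reach 0.05. The fit was also run on simulated data with independent noise on each array. That run held no mouse effect, so it cannot check the block or the rate of false calls under repeated biopsies.

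Members and lists were chosen with earlier results of these data known. Values of every array are given for the fast and slow isoform pairs, the myosin heavy chains, Acta1, Ckm and the 10 further members of smallest p over 6 to 24 h, up to 3 called genes are given with values from each other list, and the 15 genes most like the muscle score are named. Genes of several symbols per probe set (932 probe sets) and with none (9211) were not named.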

Additional observations from a re-analysis of the deposited data

How the results depend on the processing

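The direction of the median difference of the members over 6 to 24 h held under every alternative run, at 0.53 to 0.94 with a mouse or an array left out, as did that of fast minus slow genes, at 0.35 to 0.72. The slow side of the latter is a median of only 5 genes, whose differences ran from -1.66 to 1.57. The pooled SD of the fast minus slow score between the 2 arrays of a group was 0.34. Calls depended on single mice, and those of all genes with them. The count of members called over 6 to 24 h ran from 0 to 26 with a mouse or an array left out, that at 6 h from 0 to 2, at 12 h from 0 to 9, at 24 h from 0 to 1, that for the change in TERT-off from 0 to 2 and that for the change in TERT-on from 0 to 9. The counts at 0 h, for the difference of the changes and for the 24 h against the 6 h effect stayed at 0 in all of these. With no filter on low values 2 members were called over 6 to 24 h, 0 at 12 h and 1 for the change in TERT-on. With the filter on all 16 arrays, or with no block, the change in TERT-off gave 0 and that in TERT-on 1. With the mouse as a fixed block both gave 0. Without the intensity trend, or with robust moderation, 12 h gave 0, and with the mean of all probe sets of a gene the change in TERT-on gave 0. Without the array of low RNA quality, 12 h and both changes gave 0. With the replicate number as a block, 20 members were called over 6 to 24 h, 2 at 12 h, 0 for the change in TERT-off and 1 for that in TERT-on. The cohorts share only the numbers, and the correlation of same-numbered deviations across cohorts was -0.329 to 0.546. The causes of these shifts were not tested. Tpm2 reversed to 0.0379 with the mean of its probe sets and to 0.7823 with the probe set of highest variance. With a mouse or an array left out, 6 members not called in the full fit crossed 0: Pvalb (-0.19 to 0.60), Casq2 (-0.34 to 0.088), Myh4 (-1.22 to 0.26, called lower without TERT-off mouse 1, adjusted p = 0.0142, and without its 24 h array, adjusted p = 0.0122), Prkag3 (-0.16 to 0.10), Ckm (-0.031 to 0.29) and Myl2 (-0.071 to 0.33). Signals near background limit Myl2, Tnni1, Prkag3, Myh7 and Tnnc1 most.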
